A study of Homo sapiens with 2 samples.

Results

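The genes examined were 10 subunits of the SWI/SNF chromatin remodelling complexes, ARID2, PBRM1, BRD7, ARID1A, ARID1B, SMARCA2, SMARCA4, SMARCC1, SMARCC2 and SMARCD1, and the measurement was the position of methylated ERG (mERG) on chromatin. A peak was counted for a member when the deposited peak list gave that gene's name to it, and 23 of the 18070 peaks in the list met this rule. These peaks named 4 of the 10 members, and the other 6 were counted as having no peak detected. The study examined how methylation of the transcription factor ERG bears on its activity in prostate cancer. The cells were VCaP, an established prostate cancer line that carries the TMPRSS2-ERG fusion and therefore makes ERG under an androgen-responsive promoter. Chromatin was precipitated with an antibody to mERG in 1 library and set against 1 control library, whose title calls it input while its antibody label reads anti-IgG. With 1 cell line and 1 library on each side there were no replicates, so all values below describe a single list and no test was made.

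SWI/SNF complexes use the energy of ATP to slide or evict nucleosomes and so open DNA to transcription factors. They are assembled from a catalytic ATPase, a shared core and subunits that set the type of complex, with ARID2, PBRM1 and BRD7 marking PBAF and ARID1A or ARID1B marking canonical BAF. Several of these genes are mutated in cancer, and BAF complexes are known partners of ERG in prostate cancer cells.

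Sequences of 4 windows are given first as examples of the DNA under peaks in these genes, and they do not stand for all of them. Each runs 100 bases to either side of a peak's centre. The first 2 lines are the next strongest peak of ARID2 and the only peak named for ARID1A. The last 2 lines, from ARID1B and SMARCC1, are the strongest peaks inside these genes among those that the list names for another gene, and they were chosen after their values were seen. All are from the + strand of hg19 (GRCh37), 5′ to 3′, and all lie in introns. Capitals mark GGAA, the invariant centre of the sites that ETS factors such as ERG bind, and TTCC, the same letters on the other strand.
ARID2 intron 12, chr12:46240698-46240898: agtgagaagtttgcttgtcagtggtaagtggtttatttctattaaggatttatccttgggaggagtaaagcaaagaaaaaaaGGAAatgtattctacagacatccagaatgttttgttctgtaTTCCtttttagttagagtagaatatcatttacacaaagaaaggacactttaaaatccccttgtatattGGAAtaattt
ARID1A intron 1, chr1:27038600-27038800: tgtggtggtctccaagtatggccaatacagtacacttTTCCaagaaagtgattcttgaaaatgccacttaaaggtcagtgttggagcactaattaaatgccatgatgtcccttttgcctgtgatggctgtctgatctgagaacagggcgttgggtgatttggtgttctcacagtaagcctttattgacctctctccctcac
ARID1B intron 1, chr6:157110897-157111097: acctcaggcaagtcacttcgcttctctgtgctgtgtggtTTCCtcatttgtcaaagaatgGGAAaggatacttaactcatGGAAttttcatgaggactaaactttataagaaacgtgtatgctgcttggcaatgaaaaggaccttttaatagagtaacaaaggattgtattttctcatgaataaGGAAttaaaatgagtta
SMARCC1 intron 26, chr3:47641822-47642022: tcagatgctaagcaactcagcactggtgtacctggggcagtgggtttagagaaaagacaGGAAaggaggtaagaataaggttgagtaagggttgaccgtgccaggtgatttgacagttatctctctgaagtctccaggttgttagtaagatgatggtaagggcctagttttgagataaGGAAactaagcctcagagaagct

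GGAA was found on one strand or the other in each of these windows, 3 times in that of ARID2, 1 time in that of ARID1A, 4 times in that of ARID1B and 2 times in that of SMARCC1. Not every peak held it, since it was found in the window of 20 of the 23 peaks named for members. DNA outside peaks was not searched, so how often GGAA occurs in windows without ERG is not known here. The ARID1B window is centred in a MIR repeat, and the other 3 are centred outside annotated repeats.

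ARID2, the AT-rich DNA-binding subunit that defines PBAF, carried more peaks than any other member by name. The gene spans chr12:46123489-46301823 on the + strand (178.3 kb), and 13 peaks were named for it, with scores from 34.5 to 64.6 and a median of 47.6. The score is the value that the peak caller MACS gave each peak, higher for stronger signal over control, and over all 18070 peaks its median was 40.9, with a middle range from 36.0 to 50.0. By score, 9 of the 13 ARID2 peaks fell in the stronger 50% of the list and 6 reached 50.

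The ARID2 peaks formed a long series through the body of the gene rather than a single cluster. The closest to the transcription start site (TSS) was centred 19.3 kb downstream and the farthest 128.9 kb downstream, and the gap between neighbours ranged from 124 to 21608 bp with a median of 7804 bp. Intron 3, which at 80.1 kb makes up 44.9% of the transcript, held 8 of the 13.

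Within intron 3 the first peaks came in a group. The peak at chr12:46142714-46143030 scored 51.8 at 19.3 kb from the TSS, and chr12:46145351-46145644 scored 36.5 at 21.9 kb. These were followed by chr12:46152457-46152858 with a score of 47.6 at 29.0 kb, chr12:46158962-46159341 with 52.1 at 35.5 kb and chr12:46161434-46161735 with 39.0 at 38.0 kb. The spacing then widened towards the 3′ part of the intron. There the peak at chr12:46176978-46177365 scored 42.5 at 53.6 kb, chr12:46191969-46192352 scored 55.4 at 68.5 kb and chr12:46201455-46201737 scored 36.9 at 78.0 kb.

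Beyond intron 3, ARID2 had 1 peak in each of introns 4, 10, 11, 12 and 15, and the highest scores of the gene were among them. Intron 4 held the weakest, at chr12:46210362-46210595, with a score of 34.5 at 86.9 kb. Intron 10 held the strongest and widest, 836 bp at chr12:46232204-46233039, with a score of 64.6 at 109.0 kb, above 90.2% of the list. It was followed after 124 bp by the intron 11 peak at chr12:46233164-46233531, which scored 41.9 at 109.7 kb. This last peak is intronic in the list, but its centre falls in an exon of an ARID2 transcript that GENCODE classes as a retained intron. The intron 12 peak at chr12:46240516-46241080 scored 59.3 at 117.2 kb, and the intron 15 peak at chr12:46252298-46252791 scored 50.9 at 128.9 kb.

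The series of peaks did not stop where the name ARID2 did. Peaks in the list carry the name of the gene with the nearest TSS, and 7 more peaks centred inside ARID2 were named for SCAF11, a gene for a splicing-related protein on the opposite strand. Their centres lay 133.9 to 175.3 kb from the 5′ end of ARID2 but 85.6 to 127.0 kb from the TSS of SCAF11, whose 3′ end was 14.0 kb beyond the last of them. Of these, 3 were in intron 16, 1 in intron 18, 2 in intron 20 and 1 in the last exon of ARID2, and their median score was 36.7, against 47.6 for the 13 named for ARID2. The strongest, at chr12:46291301-46291679 in intron 20, scored 58.1. Counted by position, ARID2 therefore held 20 peaks, from 19.4 kb after its start to 3.05 kb before its end.

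PBRM1, the PBAF subunit with a row of bromodomains that bind acetylated histones, was named by 6 peaks. The gene lies at chr3:52579368-52719933 on the - strand (140.6 kb), and its scores ran from 33.7 to 68.9 with a median of 39.0. Unlike those of ARID2, most of these peaks were packed into a short stretch, with 5 of the 6 in introns 12 to 14, between 51.9 and 60.5 kb from the TSS.

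The strongest PBRM1 peak, at chr3:52666864-52667379 in intron 12, scored 68.9 at 52.7 kb and was also the strongest named for any member. In the same intron, chr3:52667784-52668153 scored 39.5 at 51.9 kb and chr3:52663553-52663913 scored 33.7 at 56.1 kb, so a strong peak sat between weak ones. The intron 13 peak at chr3:52662154-52662453 scored 38.4 at 57.6 kb, and the intron 14 peak at chr3:52659191-52659581 scored 64.1 at 60.5 kb. The remaining peak, at chr3:52695893-52696185 in intron 5, scored 38.2 and was the closest to the TSS, at 23.8 kb. A further 2 peaks, in introns 21 and 22, were named for SMIM4, a gene that overlaps the 3′ end of PBRM1, with scores of 47.0 and 40.5, the latter also inside SMIM4, which brought the peaks inside PBRM1 to 8.

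BRD7, the bromodomain subunit of PBAF, had no peak by name and none inside its body at chr16:50347398-50402899 (55.5 kb). The nearest peak on the chromosome was 1714 kb away. Chromosome 16 as a whole held 0.288 peaks per Mb, against a median of 5.06 over the 24 chromosomes, and no peak lay within 1 Mb of BRD7.

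ARID1A and ARID1B are the alternative AT-rich DNA-binding subunits of canonical BAF. ARID1A, at chr1:27019727-27108595 on the + strand (88.9 kb), was named by 1 peak, at chr1:27038585-27038816 in intron 1 of 19, with a score of 35.6 at 16.2 kb from the TSS, above 21.9% of the list. A peak with a score of 42.7 in intron 4, at chr1:27071726-27072037, was named for PIGV, an enzyme of glycosylphosphatidylinositol anchor synthesis whose TSS lies downstream of ARID1A.

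ARID1B was named by no peak, yet 23 peaks were centred inside it, more than inside any other member. The gene is the longest of the 10, at chr6:157097154-157531913 on the + strand (434.8 kb). Of the 23, 17 carried the name of MIR4466, a microRNA gene near the 5′ end of ARID1B, and 6 carried that of TMEM242, a gene beyond its 3′ end. All 23 were intronic and they ran from 13.8 to 392.2 kb after the start of the gene.

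The strongest peak inside ARID1B, at chr6:157110733-157111262 in intron 1, scored 86.8, above 96.6% of the list and above every peak named for a member. The other peaks of ARID1B were weaker, with a median score over the 23 of 39.1, and 4 of the 23 reached 50. Besides the strongest these were chr6:157281812-157282245 in intron 5 with 55.3, chr6:157489146-157489472 in intron 10 with 54.7 and chr6:157130918-157131220 in intron 1 with 52.7. Intron 5 held 6 of the 23 peaks and intron 1 held 4. As many peaks as ARID1B held were found inside 111 of the 20136 protein-coding genes (0.551%), among them ARID1B itself.

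SMARCA2 and SMARCA4, the mutually exclusive ATPases that drive the complexes, had no peak by either count. SMARCA2 is the second longest member (213.3 kb, chr9:1980290-2193624), and the peak nearest to it lay 616 kb away. SMARCA4 (118.5 kb, chr19:11071608-11190102) was 776 kb from its nearest peak. Among protein-coding genes of 0.8 to 1.25 times their length, 43.4% for SMARCA2 and 42.8% for SMARCA4 held at least 1 peak, so genes of this size without any were the more common kind.

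SMARCC1, a scaffold of the shared core, was named by 3 peaks and held 17. The gene lies at chr3:47626759-47823596 on the - strand (196.8 kb). The peaks that carry its name were in its 5′ part, at chr3:47805532-47806089 in intron 2 with a score of 68.2 at 17.6 kb from the TSS, at chr3:47780899-47781396 in intron 3 with 33.8 at 42.3 kb, and at chr3:47765671-47766093 in intron 6 with 49.0 at 57.5 kb.

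The other 14 peaks in SMARCC1 lay in introns 19 to 26 and were named for CSPG5, a gene for a neural proteoglycan that starts 20.2 kb beyond the closest of them. The strongest, at chr3:47641476-47642368 in intron 26, scored 80.3, and chr3:47695393-47695969 in intron 21 scored 72.2. Most of the rest were weak, with a median over the 14 of 37.4. Intron 21 alone held 8, so this gene showed a cluster in its 3′ part that the names in the list do not show.

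SMARCC2, the paralog of SMARCC1 in the core, and SMARCD1, which links the core to other transcription factors, had no peak by name or position. Both are short, at 27.2 kb (chr12:56556143-56583351) and 15.5 kb (chr12:50478983-50494490). The surroundings of SMARCD1 were nonetheless rich in peaks, with 54.5 per Mb in the 1 Mb on each side, and the nearest, named for COX14, was 24.6 kb away. SMARCC2 had 4.50 per Mb around it and its nearest peak at 233 kb.

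**Figure D1:**
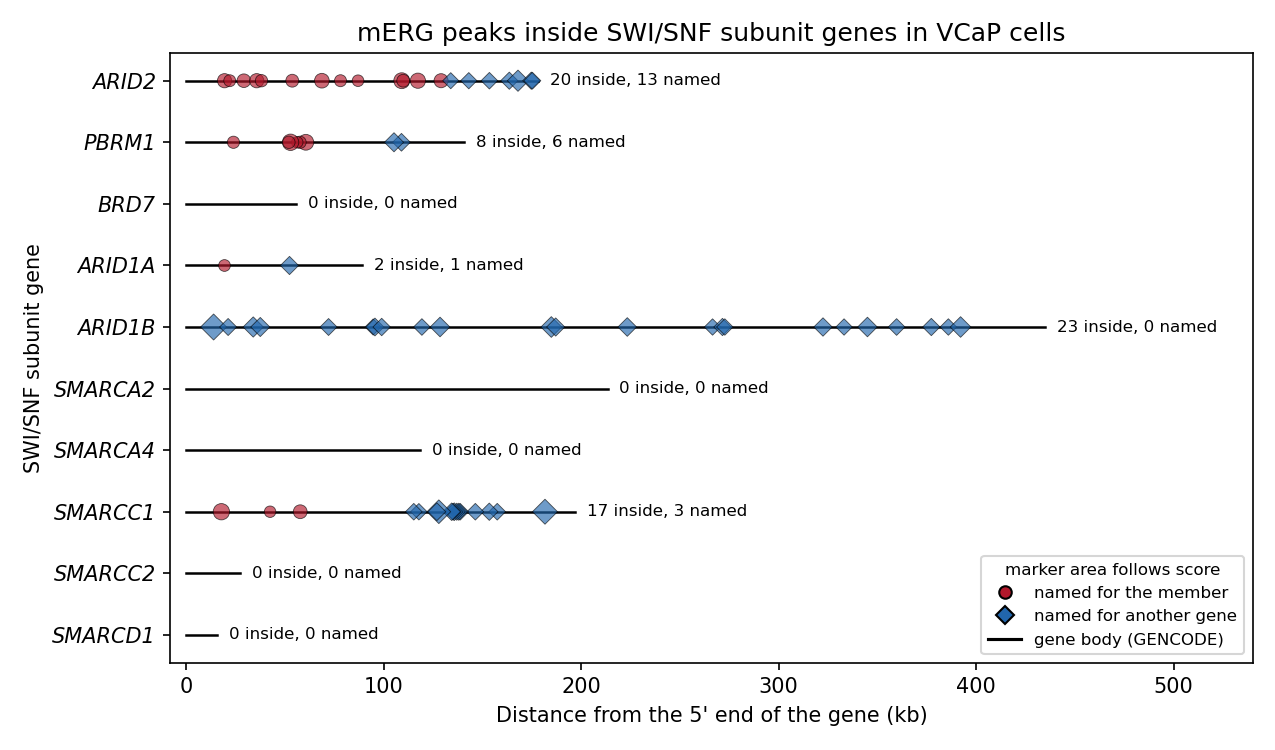
mERG peaks along the 10 SWI/SNF genes, each gene drawn as a line from its 5′ end (horizontal axis, distance in kb), with marker area following the score. Circles are peaks named for the member (23) and diamonds are peaks inside it that are named for another gene (47); the 3′ parts of ARID2 and SMARCC1 and all of ARID1B carry diamonds.

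Taken over the 10 genes, 70 peaks were centred inside 5 members, of which 23 (32.9%, 95% Wilson interval 23.0 to 44.5%) were named for the member itself. Counting also the peak inside both PBRM1 and SMIM4, 24 of the 70 (34.3%) were named for a gene that holds them, and over the whole list this was so for 71.1% of the 16768 peaks inside a protein-coding gene. The intervals given here and below treat each peak as independent, although the peaks share a few genes and naming follows the position of genes. They cover counting error under that assumption only, and not the spread between genes. Peaks named for the member were centred at a median of 36.97% of the gene's length from its 5′ end, and peaks named for another gene at 68.9%. Peaks are named by the nearest TSS, and the part of naming in this difference was not tested. In each member that held both kinds, all peaks of its own name lay closer to its 5′ end. They reached 72.4% of the length of ARID2, 43.1% of PBRM1, 21.3% of ARID1A and 29.3% of SMARCC1. Peaks with another name began at 75.1%, 74.8%, 58.7% and 58.5% of these genes. ARID1B, with no peak of its own name, allowed no such comparison. It held 23 of the 47 peaks named for another gene, with 12 in its 5′ 50% and 11 in its 3′ 50%. No peak among the 70 was within 10 kb of the 5′ end of the gene that held it.

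The score of the 70 peaks was close to that of the list. Its median was 39.1, against 41.1 for all peaks inside protein-coding genes, and 16 of the 70 (22.9%) reached 50, against 25.7%. Peaks with the member's own name had a median of 42.5 and those with another name 38.4, but this was not shared by all genes. In ARID2 the medians were 47.6 and 36.7, in PBRM1 they ran the other way, at 39.0 and 43.7, and in SMARCC1 they were 49.0 and 37.4. In ARID1A the 1 peak of each kind scored 35.6 and 42.7. Without ARID2 the median of peaks with the member's own name was 39.0. The 2 highest scores, in ARID1B and SMARCC1, belonged to peaks named for another gene.

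**Figure D2:**
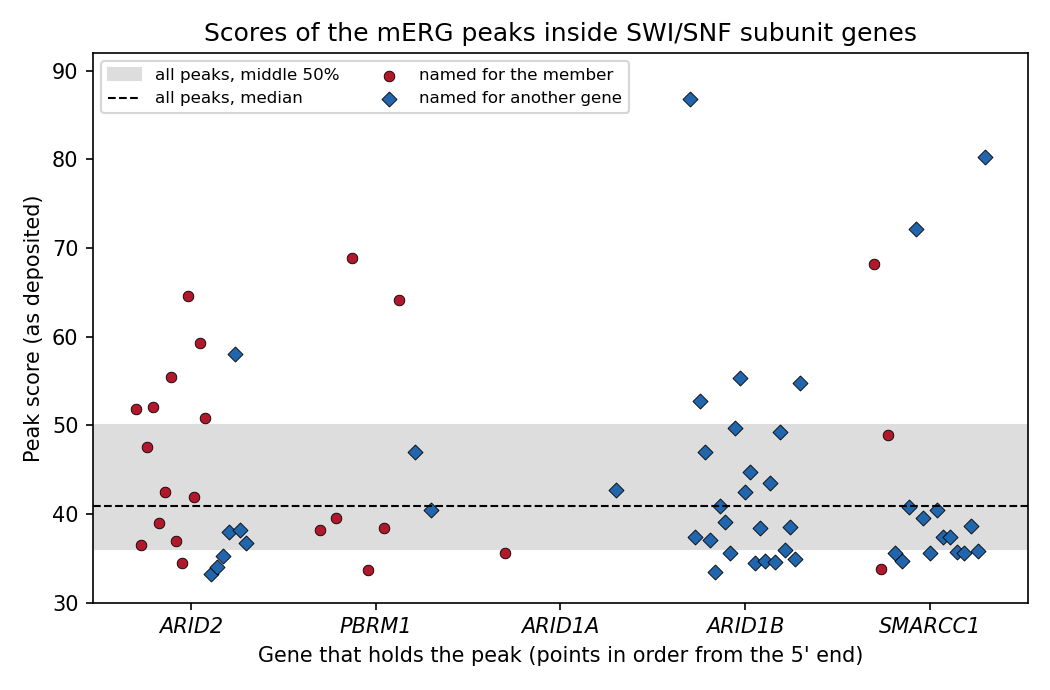
Score of each of the 70 peaks inside ARID2, PBRM1, ARID1A, ARID1B and SMARCC1 (vertical axis, score as deposited), in order from the 5′ end within each gene. The dashed line is the median of all 18070 peaks (40.9) and the grey band their middle 50% (36.0 to 50.0); 28 of the 70 points lie above the line.

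The share of members with a peak was read beside that of all genes. The list named 20.3% of the 20136 protein-coding genes, and 4 of the 10 members. With a score of at least 50 required, it named 7.64% of the genes and 3 of the 10 members, ARID2, PBRM1 and SMARCC1. By position, 19.6% of the genes and 5 of the 10 members held a peak.

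Gene length moved with these shares. The median length was 129.5 kb for the members and 27.2 kb for all protein-coding genes, and the share of genes named rose from 4.42% among the shortest 10% to 34.8% among the longest 10%, after 38.5% in the band just below. Among genes of 0.8 to 1.25 times its length, the share named was 37.5% for ARID2, 38.6% for PBRM1, 37.6% for ARID1A and 37.8% for SMARCC1. For the members not named it was 29.3% for ARID1B, 36.8% for SMARCA2, 37.7% for SMARCA4, 30.5% for BRD7, 20.0% for SMARCC2 and 11.5% for SMARCD1. In every one of these bands most genes were not named.

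The number of peaks, unlike the mere presence of one, put ARID2 in the upper range of genes of its length. Of the 1090 protein-coding genes of like length, 4.59% were named by 13 peaks or more, and 4.13% held 20 or more. The members were chosen with earlier results of these data known, so these ranks are a description only. By name, as many peaks as the member had were given to 19.8% of genes of like length for SMARCC1 and 10.7% for PBRM1, while ARID1B had none. The same share by position was 3.14% of 382 genes for ARID1B, 4.83% of 974 for SMARCC1, 10.8% of 1394 for PBRM1 and 28.8% of 1812 for ARID1A. The 5 protein-coding genes closest to ARID2 in length differed widely, with 10 peaks named for PHF20, 3 for GPD2 and none for ARMC9, SMOC1 or PRKAR1B.

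**Figure D3:**
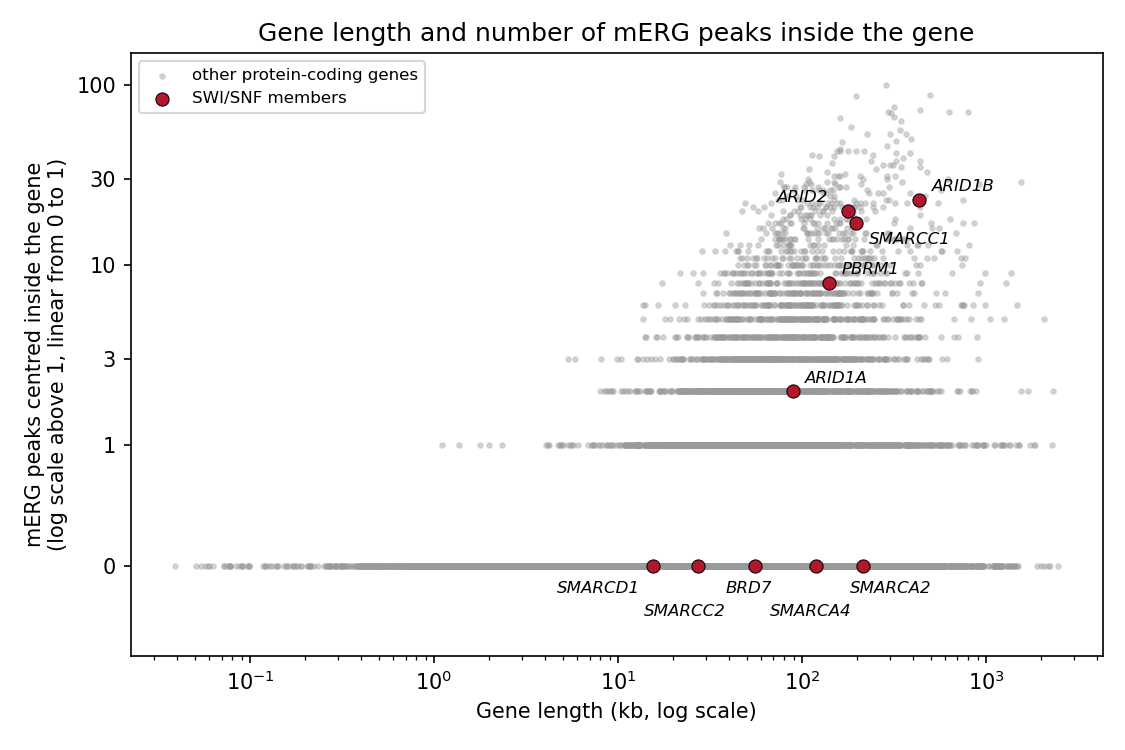
Gene length (horizontal axis, kb, log scale) and number of mERG peaks centred inside the gene (vertical axis, log above 1) for protein-coding genes (grey) and the 10 SWI/SNF members (red). ARID1B (23), ARID2 (20) and SMARCC1 (17) lie among the genes with many peaks, and 5 members lie at 0.

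Peaks were unevenly spread over the genome, and the neighbourhood of each member was measured for that reason. Over all chromosomes, protein-coding genes held 12.9 peaks per Mb and the DNA between them 0.709. ARID2 held 112 per Mb, while other protein-coding genes within 1 Mb of it held 31.2. In ARID1B the values were 52.9 and 8.63, in PBRM1 56.9 and 28.4, in ARID1A 22.5 and 10.6, and in SMARCC1 86.4 and 59.4. These 5 are the members that hold a peak, and over all 10 the order was not uniform, since SMARCD1, SMARCA2, SMARCC2 and SMARCA4 held none while genes around them held some. SMARCC1 lay in a region dense in peaks.

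The members without peaks did not share one kind of surrounding. Other genes near SMARCD1 held 68.0 peaks per Mb, from 103 peaks in 1.52 Mb. Those near SMARCC2 held 7.62 per Mb, from 8 peaks in 1.05 Mb, and those near SMARCA2 10.8, a value that rests on 2 peaks in 0.185 Mb. Genes near SMARCA4 held 1 peak (0.680 per Mb) and those near BRD7 none. Next to ARID2, SCAF11 was named by 17 peaks, of which 7 lay inside ARID2 and 10 inside SCAF11 itself. The nearest neighbour on the other side, ANO6, was named by 1.

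The 23 peaks named for members were also set beside the whole list, with the limit that 13 of them lie in ARID2. All 23 were intronic, against 87.6% of the list, all lay downstream of the TSS, against 75.4%, and none was within 10 kb of it, against 20.1%. Their median distance to the TSS was 53.6 kb, against an absolute distance of 27.8 kb over the list. Distance is tied to how peaks are named, by the nearest TSS, and long genes such as ARID2 allow larger values. In features that naming does not use, the 23 peaks were similar in width, with a median of 380 bp against 400 bp, and in GC content, with 35.8% against 38.3%. A repeat covered the centre of 10 of the 23 (43.5%, 95% Wilson interval 25.6 to 63.2%), against 42.4% of the list.

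The sequence under the peaks was searched for GGAA on both strands within 100 bp of the centre. It was found in 20 of the 23 peaks named for members (87.0%, 95% Wilson interval 67.9 to 95.5%), against 83.8% of the 18037 peaks on assembled chromosomes, and in 62 of the 70 inside members (88.6%). A stricter motif, the ETS core CCGGAAGT with at most 1 mismatch outside GGAA, was found in 1 of the 23 (4.35%, interval 0.772 to 21.0%), against 2.62% of the list, and in 2 of the 70. Of these 2, the ARID1B peak at chr6:157134486-157134777 had CAGGAAGT on the + strand 48 bp from the centre. Searched over whole peaks, the ETS core was found in 3 of the 23 (13.0%, interval 4.54 to 32.1%), against 6.40% of the list. Neither motif was searched for in DNA outside peaks, so these shares compare peaks with peaks only.

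Other SWI/SNF subunits, 21 genes outside the 10, were examined in the same way, and 2 were named. BICRA, a defining subunit of non-canonical BAF, had 2 peaks to its name, the higher scoring 39.5, and BCL11A, a zinc finger protein associated with BAF, had 1, which scored 42.7. The other 19 had none, namely SMARCB1, SMARCE1, SMARCD2 and SMARCD3 of the core, ACTL6A, ACTL6B, ACTB, SS18, SS18L1, BCL7A, BCL7B and BCL7C of the ATPase module, DPF1, DPF2 and DPF3 of canonical BAF, PHF10 of PBAF, BRD9 and BICRAL of non-canonical BAF, and BCL11B. By position PHF10 held 1 peak as well. These 21 genes were also shorter than the 10, with a median length of 39.1 kb. Of the 21, 9.52% were named, beside 20.3% of all protein-coding genes, and 14.3% held a peak by position, beside 19.6%, and these differences were not tested.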

How the data were processed

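The authors precipitated chromatin of VCaP cells with an anti-mERG antibody and sequenced it with 1 control library. The submitters' processing notes name Bowtie2, Picard and HOMER with hg19, without roles or versions, and the file header shows MACS peaks annotated by HOMER; the MACS version and threshold are not given in the sources used here. The peak score is the deposited MACS score, whose range fits -10 times log10 of a p-value; no scaling to sequencing depth is stated. Read depth is unknown, so a gene without a peak may lie below detection. Peak identifiers run to 18276 while the list holds 18070 rows, so peaks may have been removed by a rule not given in the sources used here, which bears on every count and on genes without a peak. The members and lists were chosen with earlier results of these data known.

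Peaks were counted for a gene by the name in the list, and by centre position within GENCODE 44 gene bodies lifted to GRCh37, the same build as hg19: no peak passed a chromosome end on the 24 chromosomes compared, and 23 of 23 intron numbers of member peaks matched a GENCODE transcript. The 33 peaks on other sequences had no window sequence. Shares of 20136 protein-coding genes served as background, matched by symbol or Ensembl identifier. The text names all 10 members, the other SWI/SNF subunits, and catalytic subunits of other families with a peak. It also names genes for which peaks inside members are named, some neighbours of members with a peak, and the 5 genes closest to ARID2 in length. Some peak sequences are not reported here. Alternatives were a stricter score, distance limits, position in the gene body, merging of close peaks, leaving out ARID2, annotation from GENCODE and another motif. Counts by position over all genes, and densities within genes around each member, were added after the data were seen. Motif and position routines were tested on simulated data. Tables were handled in pandas 2.3.3 and NumPy 2.4.6 under Python 3.11.15, intervals came from SciPy 1.17.1, and plots from Matplotlib 3.10.9.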

Additional observations from a re-analysis of the deposited data

How the results depend on the processing

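Counts by name depended on the score, the distance and the way a peak was given to a gene, each by its own construction. With the stronger 50% of peaks, 13 peaks remained for members, all 13 intronic, and 1 of the other SWI/SNF subunits was named. With a score of at least 50, 9 peaks remained for members, 6 of them for ARID2, with 0 of the other subunits and 5 catalytic subunits of other families named. Within 50 kb of the TSS, 9 member peaks remained, 5 of them for ARID2. Within 10 kb, 0 members were named, with 0 member peaks, 0 for ARID2, 0 other subunits and 3 catalytic subunits of other families. By position in the gene body, members held 70 peaks and ARID2 20. The median score rose to 66.4 with the strongest peak of each member alone. Within 100 bp of the centre, the ETS core in place of GGAA left 1 member peak. Of the planned settings, 16 moved a value and are given above, and 17 kept it, for counts within 1.5 times of the one reported, which still let ARID2 fall from 13 to 9 peaks with the stronger 50%. The settings for the catalytic subunits of other families were chosen after seeing the data, and 4 of those 6 gave similar counts. No paired analysis was possible because there was 1 library on each side. Without replicates or read counts, the spread between experiments and the depth needed to detect a peak are unknown. Whether the control was input or IgG cannot be told apart from the labels, and its part in the results was not tested.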

Other observations

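Catalytic subunits of other chromatin remodelling families were examined in the same list. Of 17 such genes, 8 were named, by 54 peaks in all, beside 20.3% of all protein-coding genes, and these 17 are long, at a median of 78.5 kb where all protein-coding genes have 27.2 kb. CHD6, a chromodomain helicase, accounted for 30 of the 54, with a highest score of 126.8, and held 43 peaks by position in its 216.3 kb. CHD1, which travels with elongating RNA polymerase and is often deleted in prostate cancer, was named by 7, the strongest with a score of 105.01, and its closest peak was 8.91 kb from the TSS. Fewer peaks were named for CHD7 and EP400, with 4 each, SMARCAD1, with 3, and CHD8, INO80 and HELLS, with 2 each.

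As with ARID1B, names and positions differed in this group. CHD2 was named by no peak and held 7, and SMARCA5, the ISWI ATPase, was named by none and held 2, so that 10 of the 17 genes held a peak by position, beside 19.6% of all protein-coding genes. CHD7 held 10, of which 6 were named for other genes. The difference between these shares was not tested, and the share by position among genes of like length was not computed for this group.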
